A study of Danio rerio with 10 samples.

Results

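The cytoplasmic mRNA pool of homozygous fn10a mutant zebrafish embryos (Danio rerio) was compared with that of their phenotypically wild-type siblings, gene by gene, in the 2 cytoplasmic libraries of a series of 10. Both libraries were taken whole, and no measured value chose them. The genes described are the 9087 of 14563 gene symbols that had a mean of 1 or more RPKM (reads per kilobase of transcript and per 1000000 reads of the library) over the 2 libraries. For each gene the difference was the log2 of (mutant RPKM + 1)/(sibling RPKM + 1), minus the same value for the median gene, so that 0 is the median gene.

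All embryos were of the TL strain and were collected at 36 hours post fertilization (hpf). Mutant cytoplasm came from fn10a-/- embryos and sibling cytoplasm from a mixture of fn10a+/- and +/+ embryos, so the comparison group carries the allele too. Cytoplasmic and nuclear RNA of each of these groups was separated with the PARIS kit and made into unstranded libraries of polyadenylated RNA, with 1 library for each fraction and genotype and no statement of how many embryos went into it. Whole embryos gave 6 further strand-specific libraries, each from 30 embryos: 2 of fn10a-/- mutants, 2 of siblings (fn10a+/- and +/+) and 2 of wild-type controls from TL crosses. The labels name the allele and not the gene. From knowledge of the study, fn10a is a mutation of eftud2.

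The eftud2 protein is a GTPase that belongs to the U5 snRNP (small nuclear ribonucleoprotein), which joins U4/U6 to form the tri-snRNP and enters the spliceosome with it. The spliceosome removes introns in the nucleus, and mRNAs are normally exported to the cytoplasm only after splicing. The cytoplasmic pool therefore holds mainly finished mRNA that ribosomes can use, and its level reflects synthesis, splicing, export and decay together. At 36 hpf the zebrafish embryo has a beating heart, primitive erythrocytes, a lens filling with crystallin proteins, a retina with dividing progenitors and a brain that is still producing neurons.

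With 1 library per group there is no spread between replicates, no test was possible for the cytoplasm, and none is reported. Intervals for the cytoplasm are 95% exact intervals of the counted reads (Poisson for an RPKM, conditional binomial for a ratio). They cover counting error only, with no spread between libraries. Since PCR copies are not independent molecules, the intervals may be too narrow even for that. The 2 libraries held 19195327 (mutant) and 17696776 (sibling) reads on listed transcripts, a similar depth, against 7164408 in mutant and 14141991 in sibling nuclei. A gene kept here had a median of 447 reads in the mutant and 411 in the sibling library, and the interval of its log2 ratio reached a median of 0.20 to either side. Folds and their intervals are ratios of RPKM with no pseudocount, relative to the median gene. Log2 differences carry the pseudocount of 1 RPKM, which makes them smaller for low genes in cytoplasm. In nuclei the median gene stood at -0.81 before centring, so the pseudocount draws low genes to a value above the median gene. There cryaa stood at -0.55, while the interval of its log2 ratio without a pseudocount was -2.96 to -1.37. Whole-embryo libraries, whose values do not enter the cytoplasmic difference or its filter, gave a replicated comparison with edgeR's quasi-likelihood test over 10147 genes, adjusted by the Benjamini-Hochberg method. The main fit had no term for replicate number, and without that term DESeq2 called 149 genes. In the main fit edgeR's test called 0 genes at an adjusted p under 0.05. Its lowest adjusted p was 0.0811, and 534 genes had an unadjusted p under 0.05. With the term it called 118 genes higher, 1.16% of those tested, and 59 lower, 0.581%; this count of 177 fell to 83 without mutant replicate 1 and to 0 without mutant replicate 2 or either sibling replicate. Unless the main fit, without the term, is named, an adjusted p or a call below is that with the term. No gene was called by edgeR in the main fit, so every call below rests on the other fit. Nothing in the labels says that the replicates were separate clutches.

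Fractionation was visible in abundant transcripts of the blood. Globin hbae1 stood at 4087 RPKM in sibling cytoplasm and 444 in sibling nuclei, and at 2125 and 134 in the mutant fractions. Not every abundant transcript was lower in nuclei, as actc1b read 4946 RPKM in sibling cytoplasm and 5900 in sibling nuclei. The noncoding 7SK RNA (rn7sk), which acts in the nucleus, read 3.22 RPKM in sibling cytoplasm and 2.21 in sibling nuclei. It cannot serve as a check of the fractions, since it had few reads in these libraries of polyadenylated RNA. Defining markers of 14 tissues and cell types, from skeletal muscle to pronephros, were present in both cytoplasmic libraries and none was at 0. In bulk RNA of whole embryos, fewer cells of a type and less mRNA per cell cannot be told apart.

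Most of the pool was alike between the 2 libraries. Of the 9087 genes, 7889 (86.8%) lay within 1.5-fold of the median gene, and the central 80% lay between -0.51 and 0.46 on the log2 scale. At 2-fold, 129 genes stood higher in mutant cytoplasm (1.42%) and 133 lower (1.46%). At this depth counting error alone was small, as the interval of the ratio excluded the median gene for 67.3% of all genes. The differences of the 2-fold genes are thus set against a pool in which most genes differ by small amounts, whose spread between equal samples is unknown. The lowest genes kept were ppp2r2bb, at a mean of 1.0002 RPKM with a log2 difference of 0.01, and zgc:153615. Just outside lay kal1b and cryba1a, at means of 0.9989 and 0.9985 RPKM, with log2 differences of -0.46 and -0.72.

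**Figure D1:**
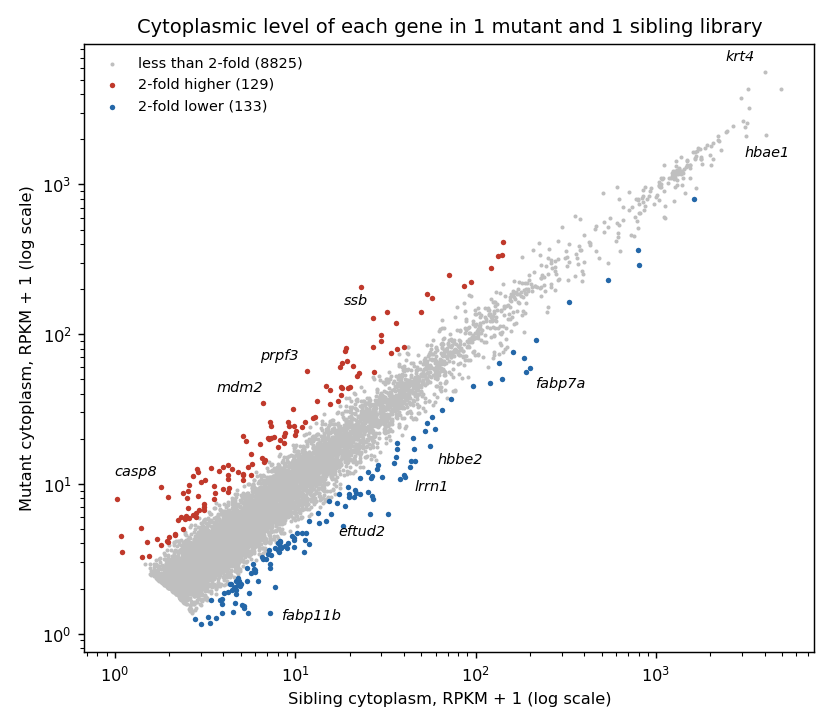
Each point is a gene, with its sibling cytoplasm level on the horizontal and its mutant cytoplasm level on the vertical axis, both as RPKM + 1 on log scales. The 129 genes that stood 2-fold higher relative to the median gene are red and the 133 that stood 2-fold lower are blue, and the most abundant genes, such as krt4, lie near the main band.

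The eftud2 transcript itself (NM_200508, danRer7 chromosome 3, 16009001 to 16033616, minus strand) was lower in mutant cytoplasm. It stood at 7.21 RPKM (interval 6.79 to 7.65, 1110 reads) against 18.9 (18.2 to 19.6, 2688 reads) in sibling cytoplasm, a ratio of 0.376 (0.350 to 0.403) and a log2 difference of -1.3. In whole embryos it read 28.1 and 9.91 RPKM in the siblings, replicates 1 and 2, against 11.3 and 3.60 in the mutants. Every mutant library was thus below the sibling library of its own replicate or fraction, and the whole-embryo difference had an adjusted p of 0.0183 by edgeR (0.834 without the replicate term). The nuclear difference relative to the median gene was -0.35.

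Genes for the splicing machinery were the group with the most 2-fold higher members. Of 98 genes listed, 88 were found and 87 kept, of which 23 stood 2-fold higher in mutant cytoplasm and 1, eftud2, 2-fold lower, beside 1.42% and 1.46% of all genes. Their median log2 difference was 0.48, with 72 above the median gene. Together their transcripts made up 1.97% of the listed reads in mutant cytoplasm (Wilson interval 1.97 to 1.98) and 1.18% in sibling cytoplasm (1.17 to 1.19). For every gene list, such a share is of the reads on the 1 transcript record kept for each symbol. These reads came to 18272406 in mutant and 16860749 in sibling cytoplasm. In whole embryos 29 of the 87 were called higher and 1 lower by edgeR with the replicate term, and 0 without it. With that term 1.16% and 0.581% of all genes tested were called higher and lower.

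Within this machinery the difference was uneven between complexes, whose grouping was laid out after the values had been seen. Among 9 genes of the U4/U6 and tri-snRNP, 6 stood 2-fold higher with a median of 1.43. The gene for prpf3, a U4/U6 protein (danRer7 chromosome 16, 10974201 to 10994040), read 10.7 RPKM (10.1 to 11.3) in sibling and 55.6 (54.3 to 57.0) in mutant cytoplasm, a 5.13-fold difference (4.82 to 5.46). Its reads fall on 2 records, so their placement is uncertain. In whole embryos prpf3 went from 18 to 85.7 RPKM in replicate 1 and from 8.76 to 47.8 in replicate 2 (edgeR adjusted p = 0.0122, and 0.171 without the replicate term). prpf31, which binds U4 snRNA and bridges to U5, read 17.9 RPKM in sibling and 75.9 in mutant cytoplasm, or 4.18-fold (3.94 to 4.43). Its whole-embryo libraries read 22 and 12.7 RPKM in siblings and 94.4 and 65.3 in mutants, without overlap.

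In the U5 snRNP, partners of the eftud2 protein differed in the direction opposite to eftud2. The helicase gene snrnp200, which unwinds U4 from U6, read 18.4 RPKM in sibling and 64.8 in mutant cytoplasm (3.46-fold, 3.36 to 3.57). prpf8, the scaffold of the catalytic core, read 21.5 and 54.1 RPKM (2.48-fold, 2.41 to 2.55), and ddx23, a helicase of U5, 17.1 and 63.0 RPKM (3.62-fold, 3.46 to 3.79). These genes were all called higher in whole embryos with the replicate term (edgeR adjusted p = 0.0285 for snrnp200, 0.0431 for prpf8 and 0.0122 for ddx23). By contrast snrnp40, a WD-repeat protein of U5, read 18 and 19.9 RPKM, at a log2 difference of 0.11.

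The ring-shaped Sm core that all of these snRNPs share had 6 kept genes, 4 of them 2-fold higher, with a median of 1.2. snrpd3 stood highest at 53.1 RPKM in sibling and 185 in mutant cytoplasm (log2 1.76), while snrpb, the most abundant splicing gene of the list, read 255 and 371 RPKM (log2 0.52). The LSm gene lsm7 read 70.2 and 247 RPKM (log2 1.78), the highest of the 4 kept LSm genes, whose median was 0.54. Among 14 genes of the U2 snRNP and U2AF, 2 stood 2-fold higher and all 14 lay above the median gene, with sf3a2 highest at 56.0 and 174 RPKM (log2 1.59). In the Prp19 complex and its relatives 4 of 9 stood 2-fold higher, among them xab2 (6.36 and 23.3 RPKM, log2 1.70) and the record listed as rab43, which the current RefSeq table names isy1 (log2 1.46). The DEAH-box helicase dhx38, a remodeller of the spliceosome, read 1.52 and 7.10 RPKM (log2 1.66).

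Other splicing proteins stood closer to the median gene. None of the 13 SR protein genes, which guide splice site choice, stood 2-fold apart. Beside 1.42% and 1.46% of all genes, 0 of 13 does not set them apart from other genes. Their median was 0.23, and they ranged from -0.38 (srsf5a, 96.1 RPKM in sibling and 75 in mutant cytoplasm) to 0.87 (srsf1b). In whole embryos 1 was called higher by edgeR with the replicate term, beside 1.16% of all genes tested. The 3 U1 snRNP genes lay between -0.23 (snrpc) and 0.25 (snrnp70). ctnnbl1, a partner of the Prp19 complex, was lower at -0.42. Whether the complexes differ from each other was not tested.

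Another group concerned damage response and growth arrest. Of 46 genes listed, 30 were kept, with a median of 0.23. At 2-fold, 11 stood higher and 0 lower, beside 1.42% and 1.46% of all genes. In whole embryos 11 members were called higher and 0 lower by edgeR with the replicate term, beside 1.16% and 0.581% of all genes tested. mdm2, a ubiquitin ligase (danRer7 chromosome 4, 22061454 to 22070957, plus strand), read 5.67 RPKM (5.16 to 6.21) in sibling and 33.7 (32.5 to 34.9) in mutant cytoplasm, a 5.84-fold difference (5.29 to 6.46). Whole embryos gave 12.6 and 7.19 RPKM in siblings and 72.4 and 38.8 in mutants, so the mutant libraries lay above both siblings (adjusted p = 0.0122 by edgeR, 0.171 without the replicate term). The zgc:136826 record, named rps27l in the current RefSeq table and encoding a ribosomal protein paralogue, read 31.4 and 139 RPKM (4.36-fold, 4.0 to 4.75). phlda3, whose product restrains Akt signalling in mammals, went from 1.39 RPKM in sibling to 7.71 in mutant cytoplasm (log2 1.84). gadd45aa, a growth arrest gene, read 1.55 and 8.01 RPKM (log2 1.79), and sesn3, a sestrin of the nutrient-sensing pathway, 3.25 and 10.5 (log2 1.41).

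The cyclin gene ccng1 was the most abundant member of that list, with 138 RPKM in sibling and 335 in mutant cytoplasm (2.38-fold, 2.33 to 2.43). In the nuclei it went the other way, from 268 RPKM in siblings to 88.9 in mutants, or -0.77 relative to the median gene. isg15, a ubiquitin-like modifier, rested on 4 sibling reads and 183 mutant reads, and its ratio of 41.6 has an interval from 16 to 154. Members that did not stand apart included btg1, an antiproliferative gene (35.2 and 28.1 RPKM, log2 -0.34), and perp, of desmosomes and cell death (23.9 and 29.8 RPKM, log2 0.28).

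Genes of apoptosis overlapped with that group. Of 23 kept, 4 stood 2-fold higher and 0 lower, beside 1.42% and 1.46% of all genes, and the median was 0.10. The initiator caspase gene casp8 (danRer7 chromosome 6, 12957805 to 12968646, plus strand) read 0.814 RPKM (0.634 to 1.03, 70 reads) in sibling and 8.53 (7.95 to 9.14, 793 reads) in mutant cytoplasm, a 10.3-fold difference (8.06 to 13.4). Its whole-embryo values were 1.53 and 1.38 RPKM in siblings and 12.2 and 9.15 in mutants, and it was called there (edgeR adjusted p = 0.0139, and 0.319 without the replicate term). The BH3-only gene bbc3, which frees Bax by binding Bcl2 proteins, had 16 sibling and 433 mutant reads, or 0.1 and 2.51 RPKM, in cytoplasm (24.6-fold, 15 to 43.5). baxa, which permeabilises mitochondria, read 7.19 and 18.7 RPKM (log2 1.24), and the executioner caspase gene casp3b 4.15 and 9.59 RPKM (log2 1.01). The antiapoptotic mcl1a and mcl1b stood near the median gene at -0.29 and 0.03, as did cytochrome c (cycsb, 154 and 168 RPKM).

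Factors that make and mature small nuclear RNAs held some of the largest differences, although the list as a whole was centred at -0.01 (0.30 over its genes with a mean of 5 or more RPKM). Of 27 genes kept, 5 stood 2-fold higher and 0 lower, beside 1.42% and 1.46% of all genes. With the replicate term 6 were called higher in whole embryos, beside 1.16% of all genes tested. brf2, part of the factor that recruits RNA polymerase III to U6 genes, read 1.86 RPKM (1.54 to 2.22) in sibling and 11.5 (10.7 to 12.3) in mutant cytoplasm, or 6.1-fold (5.04 to 7.44). kiaa0947l, named ice1 in the current RefSeq table and part of the little elongation complex that transcribes snRNA genes, read 1.89 and 11.0 RPKM (5.76-fold, 5.17 to 6.43). mettl16, which methylates U6 snRNA, went from 4.37 to 18.2 RPKM (4.1-fold, 3.63 to 4.66). snapc4, a subunit of the complex that binds snRNA promoters, stood at a log2 of 1.42, and toe1, a nuclease that trims snRNA ends, at 1.34.

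Some genes of neighbouring functions stood as high. ssb, the La protein that binds the ends of new RNA polymerase III transcripts, read 26 RPKM (2376 reads) in sibling and 128 (126 to 130, 12622 reads) in mutant cytoplasm, or 4.83-fold (4.62 to 5.05). Its whole-embryo libraries read 36.7 and 21.3 RPKM in siblings and 127 and 113 in mutants, without overlap. The list of transcription by RNA polymerase II had a median of -0.16. In it 4 of 63 genes stood 2-fold higher and 0 lower, beside 1.42% and 1.46% of all genes. These were the polymerase subunit genes polr2eb (48.6 and 140 RPKM, log2 1.48) and polr2l (log2 1.0), the TFIID subunit gene taf10 (log2 1.24) and the TFIIE gene gtf2e1 (log2 1.15). The 11 kept genes of the Integrator complex, which cleaves snRNA 3' ends, lay lower instead, with a median of -0.54, from ints2 (2.39 and 0.878 RPKM, log2 -0.88) to ints12 (4.79 and 5.42 RPKM, log2 0.12). None of them reached 2-fold with the pseudocount of 1 RPKM, although the RPKM of ints2 differed by more than that. The median was -0.62 with a pseudocount of 0.1 RPKM and -0.26 with one of 5 RPKM. Over the genes with a mean of 5 or more RPKM it was -0.19. For 7 of the 11 the counting interval lay below the median gene. In whole embryos the list medians were -0.36 and -0.39 in the 2 replicates. There 1 member was called lower by edgeR with the replicate term, beside 0.581% of all genes tested.

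The remaining genes with the largest cytoplasmic excess had varied roles. lnx1, a ubiquitin ligase, read 1.71 RPKM in sibling and 10.4 in mutant cytoplasm (5.96-fold, 5.20 to 6.86). bmb (brambleberry), needed for nuclear fusion in cleaving embryos, read 0.972 and 7.11 RPKM (7.19-fold, 5.76 to 9.09). pde6d, a carrier of prenylated proteins, went from 4.16 to 19.9 RPKM (4.70-fold). supt7l, of the STAGA transcription coactivator, read 1.57 and 8.83 RPKM (5.51-fold), and ecd, the homologue of Drosophila ecdysoneless, 2.4 and 11.7 RPKM (4.79-fold). Among these, supt7l was not called in whole embryos (edgeR adjusted p = 0.0583 with the replicate term) and stood at 0.20 in the nuclei, while the others were called, at 0.0122 for lnx1 and bmb, 0.0189 for pde6d and 0.0433 for ecd.

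**Figure D2:**
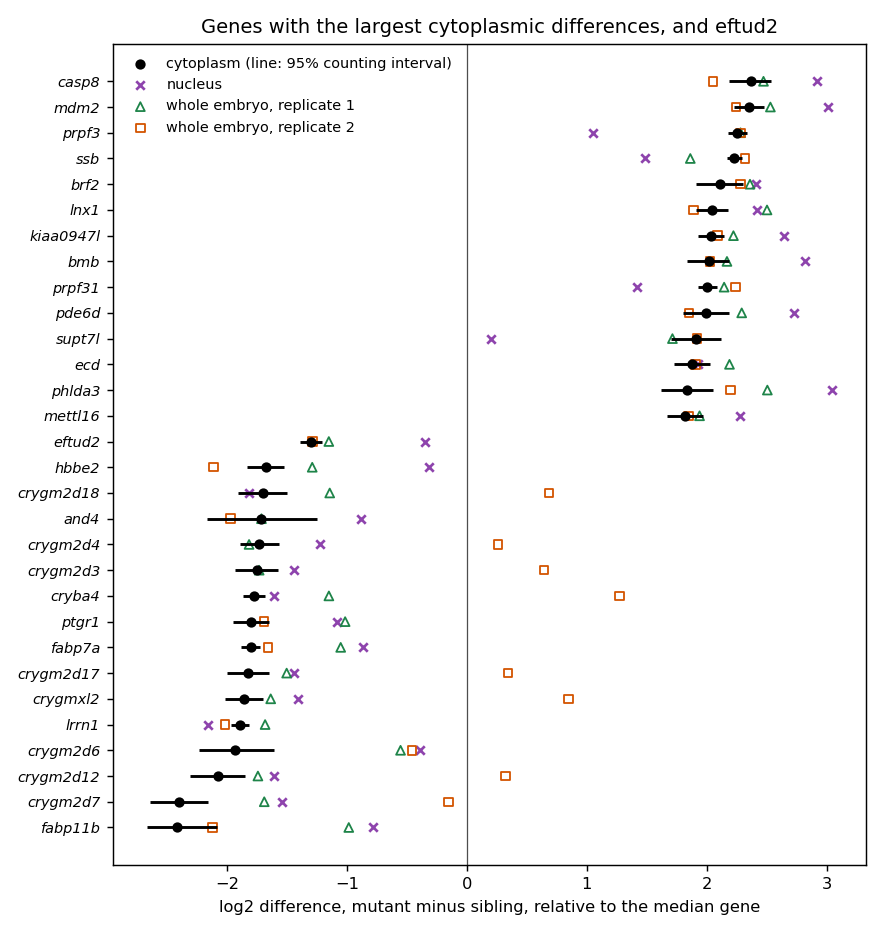
For each gene with the largest cytoplasmic difference, and for eftud2, the log2 difference between mutants and siblings relative to the median gene is shown in cytoplasm (black, with its 95% counting interval on this scale), nuclei (purple crosses) and the 2 whole-embryo replicates (green triangles, orange squares). The higher genes lie to the right of 0 in every comparison, while most crystallin genes (names starting with cry) lie to the left in cytoplasm, nuclei and replicate 1 and to the right in replicate 2.

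Crystallin genes, whose products fill the fibre cells of the lens, formed the most numerous lower group. All 31 kept genes with a crystallin name were below the median gene, with a median of -1.38. Of them 28 were 2-fold lower (1.46% of all genes stood 2-fold lower). Summed over the 31, they came to 1758 RPKM in sibling and 703 in mutant cytoplasm. cryba4, a beta crystallin, read 199 RPKM (193 to 205) and 58.5 (55.4 to 61.7), a ratio of 0.289 (0.271 to 0.308), with reads on 2 records. crygm2d7, a gamma M crystallin (danRer7 chromosome 9, 23304631 to 23305359, minus strand), read 31.6 and 5.29 RPKM, a ratio of 0.165 (0.135 to 0.199). The alpha crystallin gene cryaa read 2.94 and 0.378 RPKM (log2 -1.54). The 19 kept genes named crygm2d, all 2-fold lower, are near-identical copies, so reads may be divided between them and they are not separate observations. Chromosome 9 held 28 of the 133 lower genes among its 351 genes (7.98%), and 20 of these carry a crystallin name. Another of them, zgc:171792, is named crygm2d14 in the current RefSeq table.

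Other lens genes shared the cytoplasmic difference. The lens fibre water channel gene mipb read 16.1 RPKM in sibling and 6.48 in mutant cytoplasm (log2 -1.21), and the beaded filament gene bfsp2 4.06 and 0.55 (log2 -1.73). Of the 20 kept genes of the lens list, 18 were below the median gene and 11 were 2-fold lower, with a median of -1.12. The list includes crystallins, and without them its median was -0.56, while the lens transcription factor gene pitx3 stood at 0.04.

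The lens difference was not the same in every sample pair. The crystallin sum in whole embryos was 700 RPKM in siblings and 296 in mutants of replicate 1, but 146 in siblings and 359 in mutants of replicate 2, with 414 and 294 in the wild-type controls. All 31 crystallin genes were below the median gene in replicate 1 and 3 of 31 in replicate 2. In the nuclei the sum was 1232 RPKM in siblings and 264 in mutants. These sums are not set against the median gene, which stood at -0.81 in nuclei before centring. Relative to the median gene, the median of the 31 crystallin genes was -1.07 in nuclei and -1.38 in cytoplasm. The nuclear median may be drawn upward by the pseudocount, as nuclear values of low genes are. Sibling libraries thus ranged from the highest to the lowest whole-embryo sum, and no lens gene was called in whole embryos by edgeR. Of the 133 genes 2-fold lower in cytoplasm, 31 were not lower in replicate 2, and 25 of these carry a crystallin name, 1 more (zgc:171792) is named crygm2d14 in the current RefSeq table, and the other 5 were bfsp2, lim2.3, mipb, zgc:173452 and zgc:173645. Of these 5, zgc:173452 and zgc:173645 span chromosome 9 from 23101762 to 23278799 and from 23168080 to 23351817 in danRer7, both on the minus strand. These spans hold several crygm2d genes of the same strand, so reads may be shared with them. Without the 31 genes that carry a crystallin name, 106 genes stood 2-fold lower in cytoplasm and 128 higher. The 106 still include zgc:171792, zgc:173452 and zgc:173645.

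**Figure D3:**
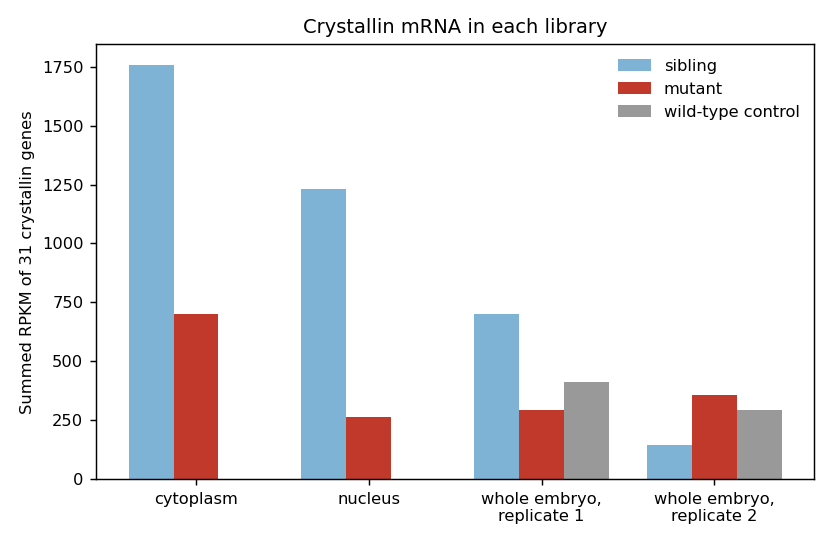
Bars give the summed RPKM of the 31 kept crystallin genes in 1 library each, for siblings (blue), mutants (red) and wild-type controls (grey), by fraction and whole-embryo replicate. Mutants are lower in cytoplasm (703 against 1758), nuclei and replicate 1, and higher in replicate 2 (359 against 146). The sums are not set against the median gene, which stood at -0.81 in nuclei and 0.02 in cytoplasm.

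Genes of neural progenitors stood lower. Of 49 kept, 41 were below the median gene, with a median of -0.32 (-0.20 with a pseudocount of 5 RPKM). At 2-fold, 5 stood lower and 0 higher, beside 1.46% and 1.42% of all genes. With the replicate term 3 were called lower in whole embryos, beside 0.581% of all genes tested. The fatty acid binding protein gene fabp7a, a marker of radial glia (danRer7 chromosome 17, 15274767 to 15277114, plus strand), read 190 RPKM (185 to 195) in sibling and 54.8 (52.2 to 57.4) in mutant cytoplasm, a ratio of 0.283 (0.268 to 0.299). In whole embryos it read 159 and 127 RPKM in siblings and 71.2 and 40.9 in mutants, without overlap, but missed the threshold (edgeR adjusted p = 0.128). sox11b, a transcription factor of neuronal precursors, read 71.6 and 35.8 RPKM in cytoplasm (log2 -1.01) and was called lower in whole embryos (edgeR adjusted p = 0.0317, 0.945 without the replicate term). The growth factor gene mdka, abundant in the neural tube, stood near the median gene at 161 and 177 RPKM.

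Notch signalling keeps neural progenitors from differentiating, through certain transcriptional repressors of the Her/Hes family. Which of the genes named below act in this way was not examined. Of 37 kept Notch pathway genes, 6 stood 2-fold lower and 0 higher, beside 1.46% and 1.42% of all genes, with a median of -0.15. hes6 read 34.2 RPKM in sibling and 12.8 in mutant cytoplasm (ratio 0.369, 0.338 to 0.403), and was called lower in whole embryos (edgeR adjusted p = 0.0392). her13, another gene of the Her family, read 10.4 and 3.24 RPKM (log2 -1.45). The her4 records form a tandem of similar copies on chromosome 23, from 21746700 to 21765164 in danRer7. The 5 kept records stood between -1.26 and -1.54, with reads that may be divided among them. The lowest of them, named her4.4 in the current RefSeq table, is not among the 37 genes, whose lowest was her13. Any her4 copies in the count of 6 are not separate observations. poglut1, the glucosyltransferase that modifies Notch, read 6.27 and 1.92 RPKM (log2 -1.34), and helt, a Hes-related gene of the midbrain, 7.06 and 3.0 (log2 -1.03). The Delta ligand gene dlb and the modifier gene lfng lay closer to 0, at -0.22 and -0.24, and the ligand gene jag1b was the highest member at 0.54.

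Retinal genes were lower in part. atoh7, the factor that starts ganglion cell production in the retina, read 3.51 RPKM (2.98 to 4.12, 153 reads) in sibling and 0.404 (0.243 to 0.630, 19 reads) in mutant cytoplasm, a ratio of 0.113 (0.0662 to 0.183). In whole embryos it read 0.581 and 3.86 RPKM in siblings and 0.102 and 0.628 in mutants (edgeR adjusted p = 0.0165). Among 13 kept retinal genes the median was -0.32, with otx2 at -0.83 and mab21l2 at -0.72, and rx1 highest at 0.22. That median was -0.49 with a pseudocount of 0.1 RPKM, -0.13 with one of 5 RPKM, and -0.79 over the genes with a mean of 5 or more RPKM. Neuronal genes as a list had a median of -0.10 over 48 genes, with neurod4 lowest (21.8 and 9.98 RPKM, log2 -1.08).

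Several lower genes belonged to other tissues. lrrn1, a leucine-rich repeat membrane protein of the developing nervous system (danRer7 chromosome 6, 43007816 to 43023475, minus strand), read 39.8 RPKM (38.8 to 40.8) in sibling and 10.2 (9.71 to 10.7) in mutant cytoplasm, a ratio of 0.252 (0.238 to 0.266). Its whole-embryo values were 125 and 42.5 RPKM in siblings and 35.8 and 10 in mutants (edgeR adjusted p = 0.0147, 0.673 without the replicate term). fabp11b, a fatty acid binding protein gene named fabp4b in the current RefSeq table, had the lowest log2 difference of all genes, -2.41, on 166 sibling reads and 11 mutant reads. ptgr1, a prostaglandin reductase, read 26.1 and 6.94 RPKM (ratio 0.261, 0.233 to 0.293). and4, an actinodin of the fin fold, read 10.3 and 2.5 RPKM (ratio 0.239, 0.154 to 0.361). Of these 4, lrrn1 was called lower in whole embryos, and fabp11b, ptgr1 and and4 had edgeR adjusted p-values of 0.0967, 0.0745 and 0.0872.

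In the blood, embryonic globins stood lower, although the erythroid list as a whole was centred near the median gene. Of 22 kept erythroid genes 1 was 2-fold lower, beside 1.46% of all genes, and the median was 0.03. hbbe2 read 54.9 RPKM (51.9 to 58.0) in sibling and 16.8 (15.2 to 18.5) in mutant cytoplasm, a ratio of 0.301 (0.269 to 0.337). The abundant hbae1 read 4087 and 2125 RPKM (log2 -0.97), hbbe1.1 2019 and 1343 (log2 -0.61) and hbae3 stood at -0.73, whereas hmbsb, of haem synthesis, stood at 0.72. The list took 0.923% of the listed reads in mutant (Wilson interval 0.918 to 0.927) and 1.41% in sibling cytoplasm (1.41 to 1.42). In the myeloid lineage the lysozyme gene lyz read 58.2 and 22.4 RPKM (log2 -1.36, edgeR adjusted p = 0.0409 in whole embryos), and cebpb stood at 0.65.

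Skeletal muscle was mixed. Of 37 kept genes 18 lay above and 19 below the median gene, around a median of -0.02. At 2-fold, 2 stood lower and 1 higher, beside 1.46% and 1.42% of all genes. The fast myosin light chain gene mylpfb read 806 RPKM in sibling and 287 in mutant cytoplasm (log2 -1.51), while its paralogue mylpfa stood at -0.07. The parvalbumin gene pvalb1 read 1632 and 793 RPKM (log2 -1.07), and mef2ca, a muscle transcription factor, 2.14 and 5.71 (log2 1.07).

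Cell division genes were lower by small amounts. Of 89 kept cell cycle and DNA replication genes 75 were below the median gene, with a median of -0.29. At 2-fold, 2 stood lower and 0 higher, beside 1.46% and 1.42% of all genes. rrm2, the ribonucleotide reductase subunit of S phase, read 140 RPKM in sibling and 74.4 in mutant cytoplasm (log2 -0.93), dut, a dUTPase, 145 and 78.4 (log2 -0.90), and pcna, the replication clamp, 238 and 213 (log2 -0.19). Histone genes had a median of -0.36 over 16, with 13 below the median gene, among them h3f3a (596 and 416 RPKM, log2 -0.54). In whole embryos 3 of the 89 cell cycle genes were called lower and 0 higher by edgeR with the replicate term. Of all genes tested, 0.581% and 1.16% were called lower and higher.

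Ribosomal protein genes, the largest share of the pool among the lists, were slightly lower as a set. Of 80 kept, 73 were below the median gene and 0 stood 2-fold apart, with a median of -0.17. They took 16.1% of the listed reads in mutant and 18% in sibling cytoplasm (Wilson intervals 16.11 to 16.14 and 17.98 to 18.01). rplp1 of the ribosomal stalk read 3174 and 2556 RPKM (log2 -0.34) and rps2 3046 and 2670 (log2 -0.21). Their mRNAs are short. Among the 2272 genes with the shortest transcripts (212 to 1303 bases) the median was -0.08 and 3.52% stood 2-fold lower. Among the 2270 with the longest the values were 0.06 and 0.661%. The 80 lower genes of the shortest class include the 19 crygm2d genes, whose reads may be divided between copies. The 3.52% is therefore raised by genes that are not separate observations. Length and list membership were not separated by a test, but with each gene set against the median of its own length class the ribosomal median was -0.09. Translation factor genes, by comparison, had a median of 0.06 over 49 genes.

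Epidermal genes stood higher in nearly all members. Of 35 kept, 32 were above the median gene and 0 reached 2-fold, with a median of 0.33. krt4, the keratin that was the most abundant transcript of the mutant library, read 4027 RPKM in sibling and 5666 in mutant cytoplasm (1.38-fold, 1.38 to 1.39), and the keratin cyt1 3226 and 4330 (log2 0.40). The list took 7.38% of the listed reads in mutant (Wilson interval 7.37 to 7.40) and 5.50% in sibling cytoplasm (5.49 to 5.51). In whole embryos no epidermal gene was called by edgeR, and the list medians were 0.24 and 0.24 in the 2 replicates.

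Medians of the hatching gland, heart and notochord lists also lay above the median gene. Of 8 hatching gland genes 6 lay above it, with agr2 lowest at -0.65, and their median of 0.24 was 0.14 with a pseudocount of 5 RPKM. The hatching enzyme genes he1a and he1b read 609 and 354 RPKM in sibling and 966 and 616 in mutant cytoplasm (log2 0.64 and 0.77). Among 10 cardiac genes, with a median of 0.32 (0.19 with a pseudocount of 5 RPKM and 0.53 over those with a mean of 5 or more RPKM), the cardiac myosin light chain gene myl7 read 16.4 and 29.0 RPKM (log2 0.77), whereas actc1a, shared with other muscle, stood at -0.15. Notochord and floor plate genes had a median of 0.28, with 19 of 24 above the median gene, and the cartilage collagen genes col2a1a and col9a1 each stood at 0.45. All 13 kept pronephros genes were above the median gene, at most 0.58 (slc12a3), and their median of 0.20 was 0.11 with a pseudocount of 5 RPKM. None of these 4 lists had a member at 2-fold or a member called in whole embryos.

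Stress-related genes differed one by one. hsf1, the heat shock transcription factor, read 2.16 RPKM in sibling and 9.56 in mutant cytoplasm (4.35-fold, 3.76 to 5.07) and was called in whole embryos (edgeR adjusted p = 0.0122). bag3, a cochaperone, read 2.11 and 6.33 RPKM (log2 1.21), but the abundant chaperone genes hspa8 and hsp90ab1 stood at -0.05 and -0.33. The heat shock list had a median of 0.22 over 39 genes, which was 0.11 with a pseudocount of 5 RPKM. Among 38 matrix genes with a median of 0.17, the 3 at 2-fold were the gelatinase gene mmp2 (13.8 and 43.9 RPKM, log2 1.58), fibronectin fn1b (9.92 and 23.1, log2 1.12) and col18a1 (log2 1.01), and mmp2 was called in whole embryos (edgeR adjusted p = 0.0145). Genes of the unfolded protein and integrated stress responses had a median of -0.03 over 41, with phgdh of serine synthesis lowest at -1.44.

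**Figure D4:**
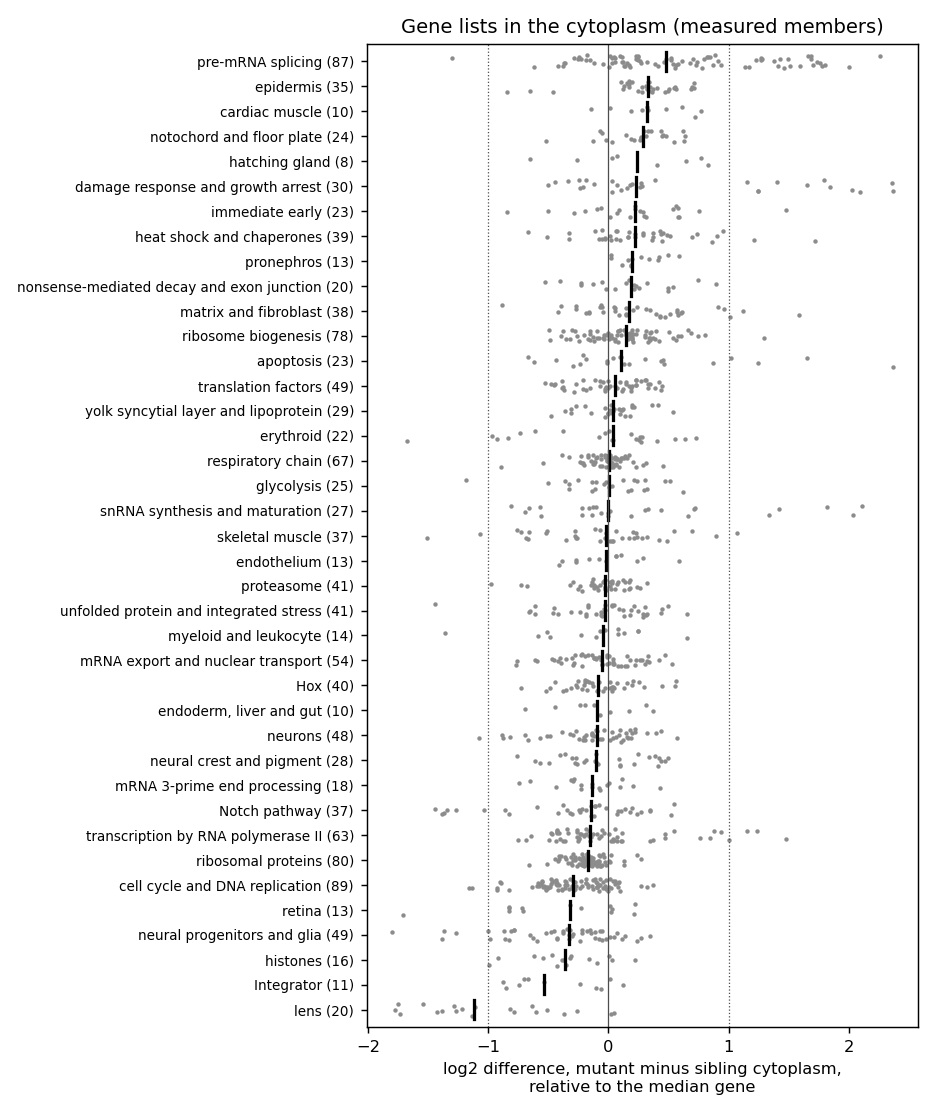
Grey points are the kept members of each of 39 gene lists (number in brackets), placed by their log2 difference between mutant and sibling cytoplasm relative to the median gene, with the list median as a black bar and 2-fold as dotted lines. The splicing list has the highest median (0.48) and a tail of members beyond 2-fold, while the lens list has the lowest (-1.12).

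The other lists were centred close to the median gene, and few of their members reached 2-fold. Medians were 0.00 for the respiratory chain (67 genes) and glycolysis (25), -0.03 for the proteasome (41), -0.06 for mRNA export and nuclear transport (54), -0.09 for Hox genes (40) and -0.14 for mRNA 3' end processing (18). Neural crest and pigment genes had a median of -0.10 (28 genes), endothelium -0.02 (13), endoderm, liver and gut -0.09 (10) and the yolk syncytial layer 0.04 (29). Ribosome biogenesis stood at 0.14 over 78 genes, with the nucleolar genes ncl (129 and 191 RPKM, log2 0.54) and fbl (75.8 and 130, log2 0.75) and with nmd3, the export adaptor of the large subunit, at 1.29. Nonsense-mediated decay and exon junction genes had a median of 0.19 over 20, with eif4a3, the helicase that clamps the exon junction complex on mRNA, highest at 85.2 and 162 RPKM (log2 0.89). Immediate early genes stood at 0.22 over 23 genes, led by fos.

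The mutant nuclei gave another view of the same genes. Over the 7657 genes kept in both fractions, the SD of the log2 difference was 0.727 in nuclei and 0.433 in cytoplasm, and 7.22% and 7.3% of genes stood 2-fold higher and lower in nuclei. Across these genes the cytoplasmic and nuclear differences had a Spearman correlation of 0.21, a description of genes that share 4 libraries and are not independent. Of the 129 genes 2-fold higher in cytoplasm, 118 were measured in nuclei and 99 of these lay on the same side, 70 at 2-fold. For the 133 lower genes the counts were 126 measured, 119 on the same side and 41 at 2-fold. The same-side counts have no share of all genes beside them, so how far they differ from it cannot be read here. The mutant nuclear library had the lowest depth of the fractions and a median gene at -0.81 before centring, against 0.02 in cytoplasm.

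Genes with the widest gap between fractions differed mainly in the nuclei. rn7sk stood at 1.04 in cytoplasm on 44 sibling and 116 mutant reads, and at 4.65 in nuclei, with 2.21 RPKM in sibling and 44.7 in mutant nuclei. The immediate early transcription factor gene fos, named fosab in the current RefSeq table, read 3.46 RPKM in sibling and 11.6 in mutant cytoplasm (3.30-fold, 2.86 to 3.81) and 2.38 and 37.8 in nuclei. nfkbiaa, the inhibitor of NF-kappaB, and tnks1bp1, a tankyrase partner, were at 0.08 each in cytoplasm but at 3.50 and 2.36 in nuclei. onecut1, a homeodomain factor of liver and neurons, was lower in cytoplasm (-0.57) and higher in nuclei (1.67).

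The 5 genes with the widest gap in the other direction were far lower in mutant nuclei, and all lay above the median gene in cytoplasm. hapln1a, a link protein of the hyaluronan matrix, read 13.1 RPKM in sibling and 18.9 in mutant cytoplasm, and 26.3 and 0.478 RPKM in nuclei. col2a1a (danRer7 chromosome 8, 21733547 to 21756525, plus strand) read 135 and 188 RPKM in cytoplasm and 258 and 19.4 in nuclei. fstl1b, a secreted follistatin relative, stood at 0.92 in cytoplasm and -2.58 in nuclei, rtn2a, a reticulon of the endoplasmic reticulum, at 1.14 and -2.18, and sgcb, a sarcoglycan of muscle membrane, at 1.06 and -2.22. In whole embryos these 5 genes were not called, and col2a1a read 70.4 and 82.5 RPKM in siblings and 83.9 and 122 in mutants.

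**Figure D5:**
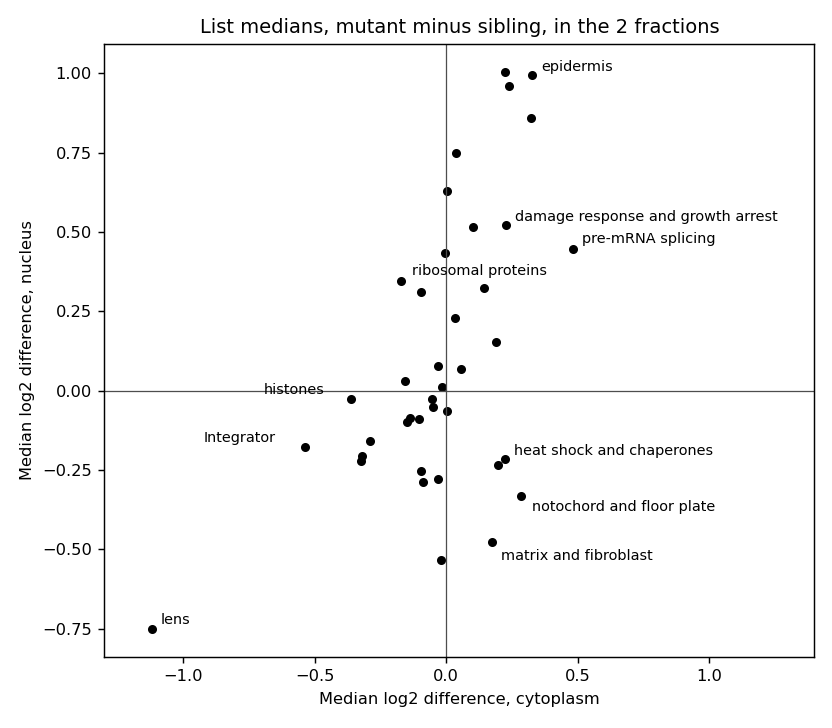
Each point is 1 of the 39 gene lists, placed by its median log2 difference between mutants and siblings in cytoplasm (horizontal) and nuclei (vertical), each relative to the median gene of that fraction. Splicing and lens lie on the same side in both, whereas ribosomal proteins (-0.17 and 0.35) and the notochord, matrix and heat shock lists change side.

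The whole-embryo libraries, which were extracted with Trizol instead of the PARIS kit, gave similar differences for many of these genes. Across the 9087 genes the cytoplasmic difference had a Spearman correlation of 0.76 with whole-embryo replicate 1 and 0.74 with replicate 2, and the 2 replicates had 0.71 with each other; these are descriptions, and the points share transcript length and read depth. Of the 129 higher genes, 127 lay on the same side in both replicates and 83 were 2-fold higher in both, against 66.8% (same side) and 1.12% (2-fold higher) of all 9087 genes. With the replicate term 79 of the 129 were called higher by edgeR and 0 lower, beside 1.16% and 0.581% of all genes tested. Of the 133 lower genes, 102 lay on the same side in both replicates, beside the same 66.8%. Of these 133 genes 38 were 2-fold lower in both (0.528% of all genes), and 33 were called lower (0.581% of all genes tested). Read the other way, all 118 genes called higher in whole embryos that were kept here lay above the median gene in cytoplasm. Of them 79 stood 2-fold higher, beside 1.42% of all genes. All 54 called lower lay below the median gene, 33 of them at 2-fold, beside 1.46% of all genes.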

How the data were processed

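In each deposited file, per the file headers, a row is a RefSeq transcript record of 1 library, with its coordinates, its length, the reads counted on it and its RPKM. These counts were deposited as whole numbers without normalization. The authors' RPKM is the count per kilobase and per 1000000 reads of a total that exceeds the listed reads, which make up 41.8% of it in mutant and 41.7% in sibling cytoplasm. Alignment used TopHat2 2.0.8 on danRer7, per the submitters' processing notes. No source used here names the counter or says whether it used strand, and genes that overlap or run antisense to each other may therefore share reads.

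Of 15865 records, each of 14563 symbols kept the 1 with most reads in the 10 libraries together (818 symbols have several). Current names came from the supplied RefSeq table (13870 symbols matched), and no sequence or coordinate was taken from it. The difference was log2((mutant RPKM + 1)/(sibling RPKM + 1)) minus its median, for genes with a mean of 1 or more RPKM, called at 2-fold (1 on the log2 scale), with 95% exact intervals from the counts (scipy 1.17.1). Whole-embryo counts were tested with edgeR 4.0.16 (R 4.3.3, glmQLFit and glmQLFTest, TMM) in 1 model of 6 libraries, genes with a mean of 1 or more RPKM, without and with replicate number as a block, and with DESeq2 1.42.0 as an alternative. Deviations of same-numbered libraries from their group means correlated at 0.757, 0.713 and 0.866 in the 3 pairs of groups over 10147 genes. The numbers thus pair the libraries, from the data and not from the labels. Whole-embryo libraries numbered 1 held 73755759 to 82752349 listed reads, and those numbered 2 held 34060890 to 36527992. Replicate number therefore goes with depth, and matched embryos and depth cannot be told apart here. The block is printed because it changes the calls. Scripts were tested on simulated data.

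Genes named were drawn from the 15 largest and 15 smallest log2 differences with 5 or more RPKM in the higher library, a gene name other than a placeholder and a counting interval wholly past 2-fold, the 4 most abundant members of each of 39 lists with the ends of the list's range, the 5 widest gaps between fractions in each direction, and eftud2. Not all of these are given above. Low ends left out include bida (apoptosis, -0.67), btg2 (damage response, -0.50), hsp70 (heat shock, -0.67), krt15 (epidermis, -0.84), and2 (matrix, -0.88) and ier5l (immediate early, -0.84). High ends left out include her6 (neural progenitors, 0.35) and orc1 (cell cycle, 0.37). Other list members named, the placeholder genes and the groups of splicing genes were picked with their values in view. The comparison and the lists were chosen with earlier results of these data known. Results for some genes are not reported here, though counts include them. Alternatives were other pseudocounts, filters, scalings and folds, all records, other whole-embryo fits and leaving out each library.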

Additional observations from a re-analysis of the deposited data

Results flagged for a closer look

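The results here differ in sign between samples given the same contrast, and none of these differences was tested. The mutant difference of 27 of 137 genes looked up, those named above and those of the naming rule, lay on opposite sides of the median gene in cytoplasm and nuclei, beyond the counting interval in both. The same held for 19.7% of all 9087 genes. Nuclear values are relative to a median gene that stood at -0.81 before centring, and other nuclear scalings were not tried. A gene given as higher in nuclei can therefore read lower there in RPKM, as rps2 did (2025 RPKM in sibling and 1419 in mutant nuclei). Because of that centring, the pseudocount also draws low nuclear genes, and list medians of such genes, to a value above the median gene. On the log2 scale col2a1a stood at 0.453 in cytoplasm and -2.85 in nuclei, fstl1b at 0.915 and -2.58, hapln1a at 0.477 and -3.39, rtn2a at 1.14 and -2.18, and sgcb at 1.06 and -2.22, and onecut1 went the other way at -0.568 and 1.67. Among the rest, bag3 stood at 1.21 and -1.74, ccng1 at 1.25 and -0.771, casp3b at 1.01 and -0.131, col18a1 at 1.01 and -0.40, mef2ca at 1.07 and -0.114, slc12a3 at 0.584 and -0.462, ncl at 0.54 and -0.352, col9a1 at 0.446 and -1.47, zgc:153615 at 0.316 and -0.0759, and mdka at 0.109 and -0.222. Lower in cytoplasm and higher in nuclei were helt at -1.03 and 0.698, dut at -0.90 and 0.374, btg1 at -0.337 and 1.5, rplp1 at -0.337 and 0.846, mcl1a at -0.294 and 0.597, lfng at -0.236 and 0.478, snrpc at -0.229 and 0.535, rps2 at -0.214 and 0.299, pcna at -0.186 and 0.151, actc1a at -0.148 and 0.916, and mylpfa at -0.0689 and 0.43. Medians of 5 lists lay on opposite sides with both values well away from the median gene. Ribosomal proteins stood at -0.172 in cytoplasm and 0.346 in nuclei, matrix and fibroblast genes at 0.175 and -0.476, and pronephros at 0.196 and -0.233. Heat shock and chaperones stood at 0.222 and -0.216, and notochord and floor plate at 0.285 and -0.333. Other lists with a median nearer the median gene in either fraction also changed side. Among them were endoderm, liver and gut (-0.0946 and 0.310) and snRNA synthesis and maturation (-0.00535 and 0.434). The lens list stood at -1.12 in cytoplasm and at 1.32 in whole-embryo replicate 2.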

How the results depend on the processing

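The counts of 2-fold genes moved with the pseudocount and the threshold. With 0.1 RPKM, 227 genes stood higher and 306 lower, with 5 RPKM 63 and 43, and at 1.5-fold 541 and 657. With the interval wholly past 2-fold and no pseudocount the counts were 141 and 162. With a mean of 5 or more RPKM they were 90 and 83. Leaving out genes with a crystallin name, a choice made after seeing the data, made 54.7% of the 2-fold genes higher, against 49.2%. The pseudocount of 5 RPKM made that share 59.4% and the pseudocount of 0.1 RPKM 42.6%. Other filters, scalings, all records, length classes and genes with 1 record gave 121 to 135 higher and 124 to 144 lower. Of 428 alternative list medians 410 moved by no more than the median reach, to either side, of their members' counting intervals. That reach belongs to individual genes and not to a list median, so it is a loose limit. The retina median, at -0.32 and at -0.13 with a pseudocount of 5 RPKM, counted as within it. The sign changed in 21 of the 428 medians, over 9 lists with main medians within 0.10 of the median gene. Among them was apoptosis at -0.0042 with no filter. The lens median ranged from -1.15 to -0.56. None of the genes past 2-fold with the largest differences or gaps between fractions changed sign, but with 5 RPKM eftud2 stood at -0.98, crygm2d6 at -0.97, fos at 0.96, phlda3 at 0.98, rtn2a at 0.90, rn7sk at 0.63 and sgcb at 0.75, the last at 0.51 with all records. In whole embryos the edgeR count was 177 with the replicate block, 149 by DESeq2 and 0 in the other fits planned, 0 whichever library was left out. In combinations with the block that were added after seeing the data, DESeq2 called 1198, and leaving out each library gave 0 to 2230: 2230 and 2176 without control replicates 1 and 2, 83 without mutant replicate 1, and 0 without mutant replicate 2 or either sibling. Depth limits genes with few reads, such as isg15.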
